A study of Mus musculus with 12 samples.

Results

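The receptor genes described are 8: P2ry12, P2ry13, P2ry14 and Gpr34, the nucleotide receptor genes P2ry6 and P2ry2, and the ATP-gated channel genes P2rx4 and P2rx7. They were named as a list and matched by gene identifier, and all 8 of 8 were among the 41388 genes counted and among the 13030 with enough reads to be tested. The genes were chosen by name with results of these counts known, so that the measured levels and changes in these 12 libraries had a part in the choice, and no single comparison is named as its source. Every comparison therefore counts as used, and the 8 genes are described with values, errors and overlap of libraries, with no p-value. The libraries came from bone marrow cells of C57BL/6 mice, 12 in all, 3 in each of 4 groups. The flox genotype carried floxed Asxl2, a Polycomb-group chromatin regulator gene, and the KO genotype was positive for LysM Cre, a recombinase that the Lyz2 promoter drives in myeloid cells. After 5 days in alpha MEM with 10% FBS, cells were replated for 2 days in 2% M-CSF, the macrophage growth factor (flox_BMM and KO_BMM), or in 2% M-CSF plus RANKL at 50 ng/ml, a cytokine that turns such cells into osteoclasts (flox_OC and KO_OC). No group carried Cre with intact Asxl2, so that effects of Cre and of the loss of Asxl2 cannot be told apart. No label states that the libraries of a group are separate animals or separate dishes. The p-values given for other genes thus measure a spread that may be technical.

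Extracellular nucleotides leave cells during stress, secretion or damage and are read by P2Y receptors, which act through G proteins, and by P2X receptors, which are ion channels opened by ATP. P2Y12 and P2Y13 respond mainly to ADP, P2Y14 responds to UDP-glucose and UDP, and GPR34, a relative of these receptors, responds to lysophosphatidylserine. All 4 are linked to Gi proteins. P2Y6 (for UDP) and P2Y2 (for ATP and UTP) are linked to Gq and calcium release. P2Y12 is the receptor on platelets that clopidogrel blocks, and P2ry12, P2ry13 and Gpr34 are known as marker genes of resting microglia. P2X7 opens at high ATP and can trigger the NLRP3 inflammasome, and P2X4 opens at lower ATP and resides largely in lysosomes.

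Levels are CPM, the depth-scaled read count, with each library's total adjusted by a TMM factor, as mean ± SD of n = 3 libraries. Changes are log2 fold changes from edgeR's fit to all 12 libraries, with their standard error (SE). The libraries held 18489873 to 21667237 counts. By these totals, before the TMM factor, 3 counts, the limit that a count of 0 allows, lie at 0.138 to 0.162 CPM. With the factor, the value shifts slightly, and 3 counts were 0.149 CPM in KO_OC library 2. Asxl2, the targeted gene, measured 93.2 ± 3.01 CPM in flox_BMM against 15.1 ± 0.265 in KO_BMM, and 73.4 ± 2.27 in flox_OC against 13.7 ± 1.24 in KO_OC, with all its exons counted. Macrophage markers summed to 32022 to 33084 CPM in flox_BMM and 15637 to 16044 in flox_OC, and to 28372 to 29122 in KO_BMM and 16646 to 16880 in KO_OC. Lyz2, whose promoter drives the Cre, made up most of each sum. It had 21808 CPM in flox_BMM, 19567 in KO_BMM, 10631 in flox_OC and 11674 in KO_OC. Of the 10 markers, 5 were higher in KO_OC than in flox_OC and 2 lower at an edgeR adjusted p under 0.05. Of all tested genes, 21.4% were higher and 19.9% lower. In BMM, 2 markers passed as higher and 8 as lower in KO, beside 19.3% and 20.6% of all tested genes. With RANKL, 10 markers passed as lower in flox and 9 in KO cells, beside 37.8% and 35% of all tested genes, and 0 as higher. Osteoclast markers summed to 234 to 243 CPM in flox_BMM and 744 to 765 in flox_OC, but to only 379.7 to 397 in KO_OC. The osteoclast marker Calcr had a single read in all 12 libraries, and Oscar had 17. In bulk RNA, fewer cells of a type and less RNA per cell cannot be told apart.

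P2ry12 (59216271 to 59262831), P2ry13 (59207896 to 59210882) and P2ry14 (59114626 to 59130624) lie side by side on chromosome 3, minus strand, in GRCm38, and positions of other genes are in the same build. P2ry12 ends 5.39 kb from P2ry13, and P2ry13 lies 77.3 kb from P2ry14. All 3 sit inside the span of Med12l, a Mediator subunit gene on the other strand, with 0 shared exonic bases. Because these neighbours moved in opposite directions with RANKL (below), the 250 bases before their RefSeq start sites are shown, from the RefSeq table of GRCm38.p6, 5′ to 3′ on the minus strand. They are chr3:59262986-59263235 for P2ry12, chr3:59210883-59211132 for P2ry13 and chr3:59131329-59131578 for P2ry14. Capitals mark matches, on either strand, to 3 motifs: GAGGAA, a core of the myeloid ETS factor PU.1, the AP-1 motif TGANTCA, and the E-box CACGTG.
P2ry12: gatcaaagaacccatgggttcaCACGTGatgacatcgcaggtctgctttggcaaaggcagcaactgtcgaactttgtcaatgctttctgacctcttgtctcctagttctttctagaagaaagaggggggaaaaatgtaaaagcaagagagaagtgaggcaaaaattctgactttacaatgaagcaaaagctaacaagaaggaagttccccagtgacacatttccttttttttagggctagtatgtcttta
P2ry13: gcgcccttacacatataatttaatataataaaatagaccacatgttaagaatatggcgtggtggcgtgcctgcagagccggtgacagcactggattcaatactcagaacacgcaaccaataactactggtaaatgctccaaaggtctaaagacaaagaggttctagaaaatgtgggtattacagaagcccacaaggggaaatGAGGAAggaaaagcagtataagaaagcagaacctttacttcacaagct
P2ry14: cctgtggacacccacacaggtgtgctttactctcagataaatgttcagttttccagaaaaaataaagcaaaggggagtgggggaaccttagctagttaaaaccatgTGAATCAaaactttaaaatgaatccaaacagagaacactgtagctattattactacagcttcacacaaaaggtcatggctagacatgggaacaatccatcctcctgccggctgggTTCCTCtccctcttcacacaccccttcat
The P2ry12 window holds the E-box, the P2ry13 window a PU.1-type core, and the P2ry14 window an AP-1 match and a PU.1-type core on the opposite strand (TTCCTC). No matches overlap. The table holds 4 start sites for P2ry14, and the window shown is that of the farthest upstream start within 1 kb of the start in the count files, 704 bases from it. The windows of the other 2 near starts, 138 and 494 bases from it, hold a PU.1-type core and 0 AP-1 matches. Of 32851 promoter windows of the same length, 23.3% hold GAGGAA, 6.75% TGANTCA and 6.02% CACGTG on either strand.

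**Figure D1:**
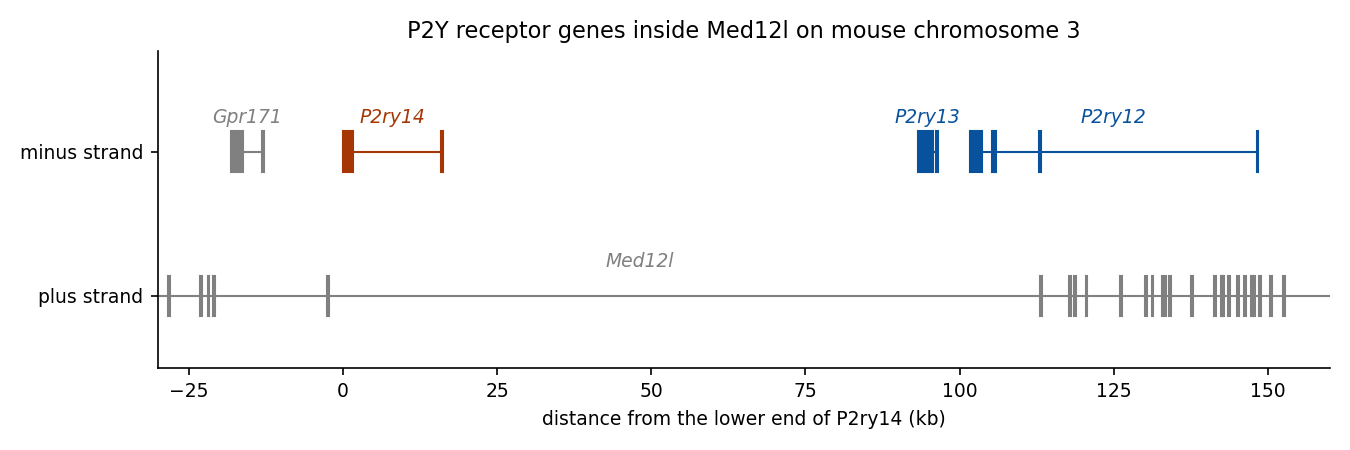
Map of the P2Y receptor genes inside Med12l. The horizontal axis is distance in kb from the lower end of P2ry14, rows are the strands, boxes are exons and lines are introns. Genes lower with RANKL (P2ry12, P2ry13) are blue, P2ry14, higher with RANKL, is orange, and other genes are grey.

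RANKL cultures held far less P2ry12, P2ry13 and Gpr34 RNA than M-CSF cultures in both genotypes, and P2ry14 went the other way. In flox cells the mean level was 15.2-fold lower for P2ry12, 22.0-fold lower for P2ry13 and 46.1-fold lower for Gpr34 on the fitted scale, while P2ry14 was 2.32-fold higher by group means. Ranked by fitted fall among 13030 genes, Gpr34 was 2nd, P2ry13 9th and P2ry12 19th in flox cells, and 2nd, 6th and 18th in KO cells. P2ry6, P2rx4 and P2rx7 stood lower by smaller amounts. In flox cells 7 of the 8 passed an adjusted p of 0.05 as lower and 1, P2ry14, as higher, where 74.8% of all tested genes passed, 37.8% as lower and 37% as higher. In KO cells 6 passed as lower and P2ry14 as higher, where 70.5% of all genes passed, 35% as lower and 35.5% as higher. Nothing is read from these counts, since the list was made with the results known.

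P2ry12 had 30.1, 30.2 and 35.9 CPM in the flox_BMM libraries and 2.08, 2.27 and 1.95 CPM in flox_OC. In KO cells it had 26.5, 26.2 and 26.2 CPM with M-CSF alone and 2.15, 1.98 and 2.76 CPM with RANKL. The log2 fold change with RANKL was -3.93 (SE 0.10) in flox cells and -3.51 (SE 0.10) in KO cells. Thus every BMM library lay above every OC library, KO_BMM lay just below flox_BMM without overlap (log2 fold change -0.29, SE 0.061), and the OC genotypes overlapped (0.13, SE 0.18). Since platelets carry P2Y12, the megakaryocyte and platelet markers are given beside it. Their sum was 355 to 418 CPM in flox_BMM, 54.7 to 60.8 in KO_BMM, 139 to 145 in flox_OC and 19.9 to 20.3 in KO_OC, with Gp6 at 0 reads throughout. This sum stood lower with genotype in both cultures, and its part in the P2ry12 level was not tested.

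P2ry13, the second ADP receptor gene, had 26.6, 29.3 and 30.6 CPM in flox_BMM and 18.0, 18.8 and 18.5 CPM in KO_BMM. With RANKL it had 1.31, 1.53 and 1.07 CPM in flox_OC and 0.974, 1.39 and 1.05 CPM in KO_OC. The genotypes were apart in BMM (log2 fold change -0.64, SE 0.064) and overlapped in OC (-0.19, SE 0.23). From summed counts, P2ry13 was 22.1-fold higher in flox_BMM than in flox_OC (95% exact interval 17.7 to 28.0) and 16.2-fold higher in KO_BMM than in KO_OC (12.7 to 21.0). These intervals, here and below, cover counting error only.

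Gpr34 (chromosome X, 13632089 to 13640858, plus strand, inside Cask with 0 shared exonic bases) had 12.4, 14.4 and 15.8 CPM in flox_BMM and 6.47, 7.27 and 6.11 CPM in KO_BMM. In flox_OC it had 0.406, 0.297 and 0.195 CPM, from 9, 6 and 4 reads, and in KO_OC 0.308, 0.149 and 0.201 CPM, from 6, 3 and 4 reads. Gpr34 RNA was thus near the limit of these libraries in OC, and more than halved by genotype in BMM without overlap (log2 fold change -1.10, SE 0.097). The ratio of summed counts was 47.1 in flox cells (780 against 19 reads, 95% exact interval 29.9 to 78.6) and 30.4 in KO cells (396 against 13 reads, 17.6 to 57.6). Between the OC genotypes the ratio of flox to KO was 1.39 with an interval of 0.649 to 3.05, so no genotype difference was detectable at this depth.

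P2ry14, the UDP-glucose receptor gene, carried the widest genotype gap of the 8 genes. It had 5.11, 5.98 and 6.40 CPM in flox_BMM against 1.63, 1.54 and 1.21 CPM in KO_BMM. In OC it had 13.3, 13.1 and 14.1 CPM in flox cells against 2.72, 2.87 and 3.01 CPM in KO cells. The 4 groups did not overlap, in the order flox_OC, flox_BMM, KO_OC, KO_BMM. The genotype log2 fold change was -2.00 (SE 0.16) in BMM and -2.23 (SE 0.11) in OC, and the RANKL change 1.21 (SE 0.094) in flox and 0.98 (SE 0.18) in KO cells. By counts, P2ry14 was 4.01-fold higher in flox_BMM than in KO_BMM (320 against 87 reads, 95% exact interval 3.15 to 5.14), and 1.97-fold higher in KO_OC than in KO_BMM (1.51 to 2.58). KO cells with RANKL held less P2ry14 than flox cells without it.

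Markers of other cells moved with the genotype gap of P2ry14. Stromal and osteoblast markers summed to 210.4 to 230.2 CPM in flox_BMM and 67.0 to 75.5 in KO_BMM, and to 179.8 to 181 in flox_OC and 55.1 to 64.0 in KO_OC. All 9 of 9 tested markers of this list passed as lower in KO in both conditions (edgeR with Benjamini-Hochberg adjustment), and Bglap was at 0 reads. Among all tested genes, 20.6% passed as lower by genotype in BMM and 19.9% in OC. Neutrophil markers summed to 77.9 to 82.3 CPM in flox_BMM and 26.1 to 28.0 in KO_BMM. With RANKL they summed to 34.2 to 35.8 CPM in flox_OC and 10.3 to 12.03 in KO_OC, with Ly6g at 0 reads. Mmp8 alone made up most of each neutrophil sum, at 72.9 CPM in flox_BMM, 22.5 in KO_BMM, 28.5 in flox_OC and 7.45 in KO_OC. Lymphoid markers summed to 97.5 to 100.2 CPM, 57.2 to 62.0, 78.3 to 87.6 and 40.6 to 44.98 in the order flox_BMM, KO_BMM, flox_OC, KO_OC. Il7r alone made up most of each lymphoid sum, at 94.2, 56.0, 81.2 and 41.1 CPM in the same order, and Nkg7 and Ncr1 were at 0 reads. The part of these markers in the P2ry14 difference was not tested. Within the stromal list, with RANKL in flox cells 1 gene rose, Runx2 (0.93 on the log2 scale, SE 0.099, edgeR adjusted p = 1.1e-11), and 5 fell. In KO cells Runx2 rose (1.27, SE 0.18, edgeR adjusted p = 2.6e-08) and 3 fell. Among all tested genes, 37% rose and 37.8% fell in flox cells, and 35.5% rose and 35% fell in KO cells.

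**Figure D2:**
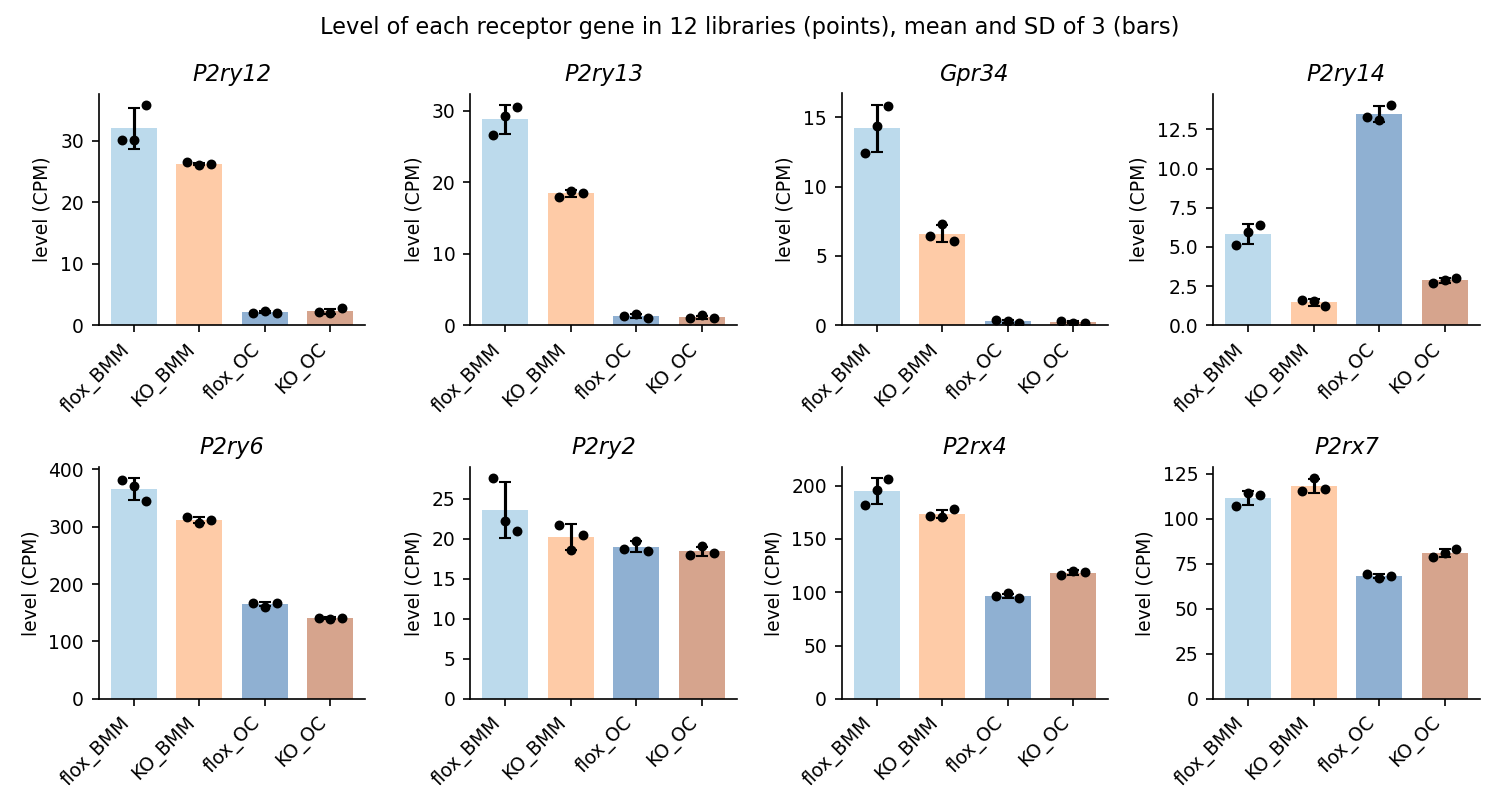
Level of the 8 genes in each library. Bars are group means with SD (n = 3), points are libraries, and each panel has its own vertical axis in CPM from 0. P2ry12, P2ry13 and Gpr34 nearly vanish in the OC groups, P2ry14 is lowest in KO_BMM and highest in flox_OC, and P2rx4 is higher in flox than KO cells in BMM and lower in OC.

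P2ry6, the UDP receptor gene (chromosome 7, 100937638 to 100964391), was the most abundant of the 8 per length of exon in every group. It had 382, 371 and 345 CPM in flox_BMM, 318, 306 and 313 in KO_BMM, 167, 160.6 and 167 in flox_OC and 141, 139 and 141 in KO_OC. No groups overlapped. The shifts had the same size in each setting: the RANKL log2 fold change was -1.15 in flox (SE 0.031) and in KO cells (SE 0.032), and the genotype change was -0.23 in BMM (SE 0.030) and in OC (SE 0.033). P2ry2, the ATP and UTP receptor gene that lies 32.2 kb away on the same strand (100996572 to 101011991), had the smallest RANKL changes of the 8, -0.31 (SE 0.075) in flox and -0.13 (SE 0.077) in KO cells. It had 27.6, 22.3 and 21.0 CPM in flox_BMM, 21.7, 18.5 and 20.4 in KO_BMM, 18.7, 19.8 and 18.5 in flox_OC and 18.0, 19.1 and 18.2 in KO_OC. All neighbours in this order overlapped, and flox_BMM library 1 was the highest. The genotype change of P2ry2 in BMM was -0.22 (SE 0.074), and it was -0.093 without flox_BMM library 1.

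The channel genes P2rx4 (122707584 to 122729738) and P2rx7 (122643911 to 122691432) lie 16.2 kb apart on chromosome 5, plus strand, and both stood lower with RANKL. P2rx4 had 182, 196 and 206 CPM in flox_BMM, 171, 171 and 178 in KO_BMM, 96.0, 98.8 and 94.7 in flox_OC and 116, 120.1 and 119 in KO_OC. KO cells thus held less P2rx4 than flox cells in BMM (log2 fold change -0.17, SE 0.034) and more in OC (0.30, SE 0.037), without overlap in either. The RANKL change of P2rx4 was -1.02 (SE 0.036) in flox and -0.55 (SE 0.035) in KO cells, a difference of 0.47 (SE 0.050). P2rx7 had 107, 114 and 113 CPM in flox_BMM, 115, 123 and 116.5 in KO_BMM, 69.1, 67.3 and 68.3 in flox_OC and 78.6, 80.9 and 83.5 in KO_OC. KO cells held more P2rx7 in both cultures, by 0.084 (SE 0.035) in BMM and 0.25 (SE 0.038) in OC on the log2 scale. Its RANKL change was -0.71 (SE 0.037) in flox and -0.55 (SE 0.036) in KO cells. P2rx7 shares 119 exonic bases (2.20%) with the microRNA gene Mir8115, which had 0 reads.

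**Figure D3:**
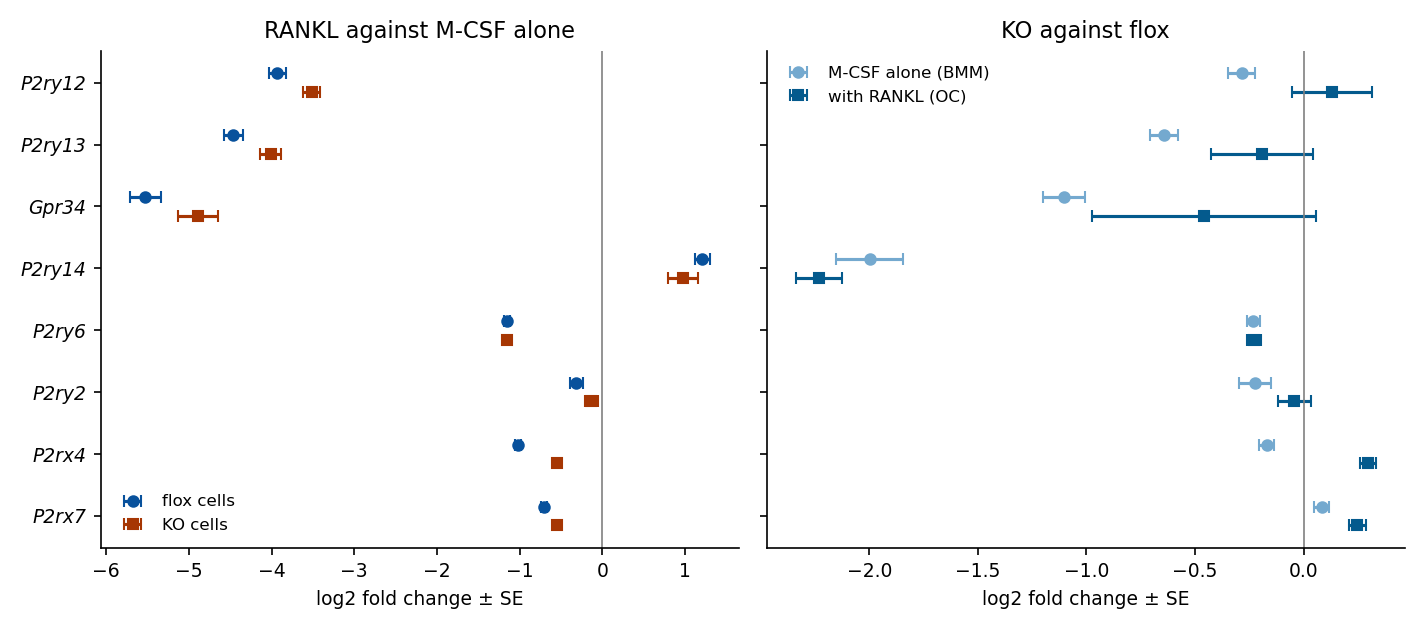
Log2 fold changes of the 8 genes with SE, from the fit to 12 libraries. Left, RANKL against M-CSF alone in flox (circles) and KO cells (squares); right, KO against flox in BMM (circles) and OC (squares), on a narrower scale. Gpr34, P2ry13 and P2ry12 lie farthest left in the first panel and P2ry14 in the second, and P2rx4 is on opposite sides of 0 in BMM and OC.

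By genotype in BMM, 7 of the 8 passed as lower and 0 as higher, where 39.9% of all genes passed, 20.6% as lower and 19.3% as higher, and P2rx7 did not pass. Of these 7, P2ry2 no longer passed without flox_BMM library 1 (-0.093) or KO_BMM library 2 (-0.16). In OC, P2ry14 and P2ry6 passed as lower and P2rx4 and P2rx7 as higher, where 41.3% of all genes passed, 19.9% as lower and 21.4% as higher. For the difference of the RANKL effects, P2rx4 and P2rx7 passed, both with a smaller fall in KO cells, where 21.9% of all genes passed, 12.3% as higher and 9.54% as lower. P2rx7 no longer passed without flox_BMM library 2 (0.14), KO_BMM library 1 (0.15) or 3 (0.15), flox_OC library 2 (0.15) or KO_OC library 3 (0.14). Libraries did not overlap for 7 genes by genotype in BMM, 4 in OC, 8 by RANKL in flox and 7 in KO cells, beside 46.6%, 51.3%, 75.2% and 73.4% of all genes. As above, nothing is read from which of the 8 passed, since the list was made with the results known.

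Per kb of exon, the 8 genes summed to 311 CPM in flox_BMM, 264 in KO_BMM, 142 in flox_OC and 132.5 in KO_OC. P2ry6 made up 60.7%, 60.9%, 59.8% and 54.7% of these sums, followed by P2rx4 and P2rx7 in every group. The share of P2rx4 was 18.9%, 19.8%, 20.5% and 27.0%. Behind this stable top, the order of the others turned over. P2ry14 was last of the 8 in both BMM groups, at 3.24 CPM per kb in flox_BMM, and stood 4th in flox_OC at 7.51 CPM per kb, where it made up 5.29%. Gpr34 was last in both OC groups.

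Likeness of pattern was measured as the root mean square difference of centred log2 levels over the 12 libraries, as a description. The genes nearest to P2ry12 were the transporter gene Slc46a3 (0.256), Rnf150 (0.290) and the iron exporter gene Slc40a1 (0.295), and P2ry13 was 10th (0.364). Nearest to P2ry13 were the haemoglobin scavenger receptor gene Cd163 (0.269), the prostaglandin-degrading enzyme gene Hpgd (0.302) and P2ry12. Nearest to Gpr34 were Hpgd (0.452), Cd163 (0.529) and P2ry13 (0.601). Nearest to P2ry14 were Antxr1 (0.254), an anthrax toxin receptor gene, the cytochrome gene Cyp1b1 (0.273) and Runx2 (0.284), the osteoblast factor gene that is on the stromal list above. Runx2 stood at 6.20, 1.41, 11.8 and 3.41 CPM in flox_BMM, KO_BMM, flox_OC and KO_OC. Nearest to P2rx4 was Pik3cg (0.0575), which encodes the PI3-kinase subunit that acts below G proteins, and nearest to P2rx7 was Pdia3 (0.0425). Between the 2 channel genes the difference was 0.127. Nearest to P2ry6 were Iqsec2, Rgs10 and Ypel5 (0.0615 to 0.0689), and nearest to P2ry2 were Adssl1, Cd151 and Fndc3b (0.0748 to 0.0816). The other near genes were BC005537 and Phlpp2 for P2rx4, and Stard9 and Hmox2 for P2rx7.

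Around these loci, 28 genes lay within 150 kb or contained a receptor gene, and 12 had enough reads to be tested. With RANKL, 4 rose, 7 fell and 1 did not pass in flox cells, where 37% of all tested genes rose and 37.8% fell. Med12l, the gene around the chromosome 3 cluster, was scarce, at 1.07 CPM in flox_BMM and 0.143 in flox_OC (-2.86 on the log2 scale, SE 0.45, edgeR adjusted p = 2.2e-07). Unlike P2ry14 inside it, Med12l fell with RANKL. By genotype in BMM it fell by 1.24 on the log2 scale (SE 0.35, edgeR adjusted p = 0.0037), a call lost without flox_BMM library 3 (adjusted p = 0.0513). The receptor gene Gpr171 lies in the same cluster and could not be tested. Cask, around Gpr34, fell by 0.66 (SE 0.054, edgeR adjusted p = 1.8e-15) in flox cells. Camkk2, a calcium-dependent kinase gene 1.44 kb from P2rx4 on the other strand, rose by 0.65 (SE 0.032, edgeR adjusted p = 1.2e-23) where P2rx4 stood lower.

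Few other receptors of the family were expressed. Of 5 other P2X genes only P2rx5 could be tested, and it rose with RANKL from 0.238 ± 0.0384 to 1.38 ± 0.369 CPM in flox cells (2.50 on the log2 scale, SE 0.38, edgeR adjusted p = 1.1e-07) and by 2.44 in KO cells (edgeR adjusted p = 2.5e-05). Of 8 other P2Y-type genes only P2ry1, a further ADP receptor gene, could be tested. It fell from 13.8 ± 1.53 to 6.10 ± 0.661 CPM in flox cells (-1.18 on the log2 scale, SE 0.094, edgeR adjusted p = 8.6e-16) and by 1.17 in KO cells (edgeR adjusted p = 1.7e-15). Its genotype changes did not pass (-0.036 in BMM, edgeR adjusted p = 0.76). ADP receptor genes P2ry1, P2ry12 and P2ry13 thus all stood lower with RANKL. Of the adenosine receptor genes 2 of 4 could be tested. Adora2b rose with RANKL from 4.63 ± 0.542 to 32.3 ± 0.641 CPM in flox cells (2.80 on the log2 scale, SE 0.088, edgeR adjusted p = 1.4e-31) and from 3.70 ± 0.574 to 15.9 ± 1.77 CPM in KO cells (2.10, SE 0.11, edgeR adjusted p = 3.1e-23). The rise was smaller in KO cells (difference -0.70, SE 0.16, edgeR adjusted p = 6.3e-04), and in OC KO cells held less (-1.02, SE 0.066, edgeR adjusted p = 4.9e-18). Adora3 did not pass with RANKL (0.39 in flox cells, edgeR adjusted p = 0.18).

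Of 12 listed genes for enzymes that act on extracellular nucleotides and adenosine, 5 could be tested. With RANKL in flox cells 4 fell and 1 rose, where 37.8% of all tested genes passed as lower and 37% as higher. The median log2 fold change of these 5 was -1.05 (all tested genes -0.0036). In KO cells 3 fell and 1 rose, where 35% of all tested genes passed as lower and 35.5% as higher. Entpd1, which encodes CD39 and removes phosphates from ATP and ADP, fell from 49.6 ± 2.75 to 5.55 ± 0.221 CPM in flox cells (-3.16 on the log2 scale, SE 0.069, edgeR adjusted p = 2.7e-38). Enpp1, which splits ATP into AMP and pyrophosphate, fell from 40.8 ± 0.865 to 5.67 ± 0.573 CPM (-2.85, SE 0.072, edgeR adjusted p = 1.8e-35). Neither gene's RANKL change differed between genotypes past the threshold (0.19 and -0.03, edgeR adjusted p = 0.25 and 0.89). Nt5e, which encodes CD73 and makes adenosine from AMP, rose instead, from 3.45 ± 0.702 to 7.61 ± 0.775 CPM in flox cells (1.14, SE 0.13, edgeR adjusted p = 2.7e-11). In KO cells it rose from 1.02 ± 0.113 to 6.14 ± 0.429 CPM (2.58, SE 0.17, edgeR adjusted p = 2e-18), a larger change (difference 1.44, SE 0.23, edgeR adjusted p = 3.5e-06). Ada, which removes adenosine, fell by 1.05 in flox cells (SE 0.078, edgeR adjusted p = 6.9e-17).

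Of 8 genes for nucleotide release and nucleoside transport, 7 could be tested. With RANKL in flox cells 2 rose and 3 fell (median -0.099), beside 37% and 37.8% of all tested genes. Gja1, which encodes the hemichannel protein connexin 43, rose from 9.71 ± 0.537 to 33.1 ± 1.85 CPM in flox cells (1.77, SE 0.069, edgeR adjusted p = 1.1e-27) and was lower in KO_OC at 13.1 ± 0.447 CPM (-1.33, SE 0.064, edgeR adjusted p = 5.3e-23). Slc29a1, a nucleoside transporter gene, rose by 0.58 in flox cells (SE 0.037, edgeR adjusted p = 3.3e-19). Slc29a3, the lysosomal nucleoside transporter gene, fell by 0.26 in flox (edgeR adjusted p = 4.9e-08) and by 0.88 in KO cells (edgeR adjusted p = 1.8e-25). Slc35d2, a UDP-sugar transporter gene of the Golgi, fell by 0.56 in flox cells (edgeR adjusted p = 1.9e-07).

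Of the G protein and calcium signalling genes, 15 of 16 could be tested. With RANKL in flox cells 3 rose and 9 fell (median -0.34), beside 37% and 37.8% of all tested genes. Arrb2, the beta-arrestin 2 gene, fell from 625 ± 15.0 to 255 ± 5.81 CPM (-1.29, SE 0.028, edgeR adjusted p = 3.4e-38), Pik3cg fell by 0.97 (edgeR adjusted p = 1.1e-31), and the phospholipase gene Plcb4 rose by 1.12 (edgeR adjusted p = 7.8e-17). By genotype 1 rose and 6 fell in BMM, where 39.9% of all genes passed, and 9 rose and 1 fell in OC, where 41.3% passed; the difference between these counts was not tested. Gnai3, Gna13, Plcb1 and Itpr2 in BMM, and Gnai3 in OC, no longer passed in some fits that left out 1 library. Pik3cg and Arrb2 were lower in KO_BMM (-0.15 and -0.24, edgeR adjusted p = 3.6e-05 and 3.7e-10) and higher in KO_OC (0.27 and 0.21, edgeR adjusted p = 3.8e-10 and 2.5e-08), the same directions as P2rx4.

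Of the inflammasome genes 6 of 7 could be tested. In flox cells 4 fell and 1 rose with RANKL (median -0.58), beside 37.8% and 37% of all tested genes. Nlrp3, the sensor downstream of P2X7, fell from 93.1 ± 3.29 to 60.9 ± 0.566 CPM (-0.61, SE 0.038, edgeR adjusted p = 1.8e-19) and was higher in KO_OC, at 77.2 ± 1.402 CPM (0.34, SE 0.039, edgeR adjusted p = 3.7e-10), as P2rx7 was. Gsdmd, the pore-forming effector gene, rose from 80.5 ± 0.818 to 244 ± 5.78 CPM (1.60, SE 0.032, edgeR adjusted p = 1.5e-39) and stood at 141 ± 0.856 CPM in KO_OC (-0.79, SE 0.030, edgeR adjusted p = 7e-27). Il1b could not be tested, with 7 to 17 reads in each group.

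**Figure D4:**
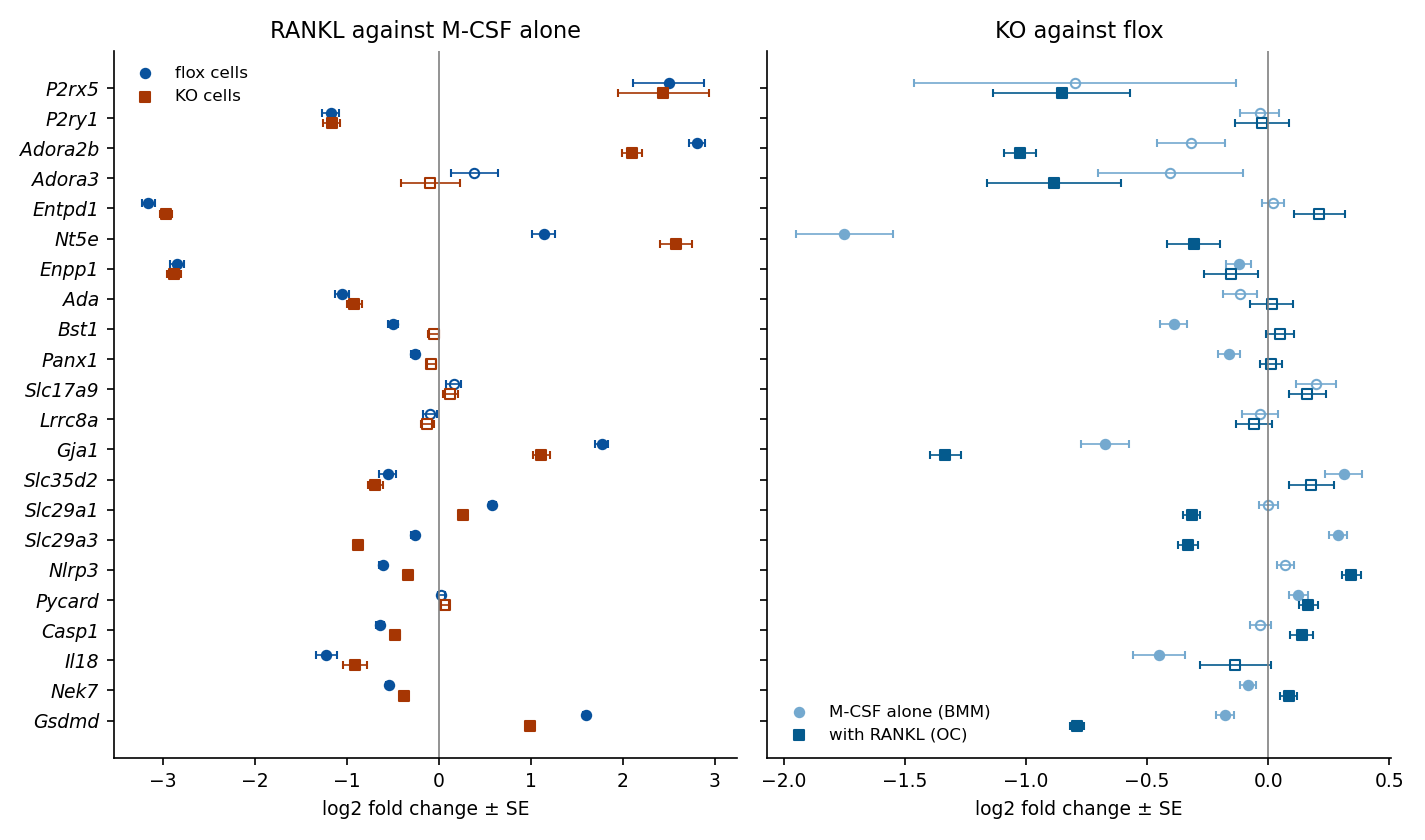
Log2 fold changes with SE of the tested genes of 6 lists of the nucleotide pathway, from P2rx5 at the top to Gsdmd at the bottom. Left, RANKL against M-CSF alone in flox (circles) and KO cells (squares); right, KO against flox in BMM (circles) and OC (squares), on a narrower scale. Filled symbols passed an adjusted p of 0.05 in edgeR; Entpd1 and Enpp1 fell most with RANKL in both genotypes, Adora2b rose most in flox cells and Nt5e in KO cells, and Nt5e and Gja1 were the farthest apart by genotype in BMM and OC.

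Other genes of the resting microglia list, to which P2ry12, P2ry13 and Gpr34 are usually added, mostly moved with them. Of 12 listed, 10 could be tested, and 9 fell and 1 rose with RANKL in flox and in KO cells. Their median log2 fold change was -1.63 and -1.31 (all tested genes -0.0036 and 0.0017). Among all tested genes, 37.8% fell and 37% rose in flox cells, and 35% fell and 35.5% rose in KO cells. Fcrls, an Fc receptor-like gene, fell from 176 ± 11.3 to 9.48 ± 0.634 CPM in flox cells (-4.22, SE 0.055, edgeR adjusted p = 2.2e-45). Gas6 and its receptor gene Mertk also fell (by -3.71 and -3.30 in log2, edgeR adjusted p = 1.2e-54 and 6.5e-47), and so did the fractalkine receptor gene Cx3cr1 (-1.99, edgeR adjusted p = 4.9e-09). Olfml3 rose by 0.50 (edgeR adjusted p = 3.7e-04). By genotype in OC, 4 genes of this list rose and 3 fell, beside 21.4% and 19.9% of all tested genes. Cx3cr1 was higher in KO_OC (189 ± 1.57 against 86.6 ± 0.455 CPM, 1.13 on the log2 scale, SE 0.081, edgeR adjusted p = 2.3e-06), as was Mertk (1.01, SE 0.055, edgeR adjusted p = 9.5e-21). P2ry12, P2ry13 and Gpr34 overlapped between the OC genotypes. Sall1 and Siglech, the other listed genes, had at most 1 and 23 reads in a group.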

How the data were processed

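RNA-seq counts of 12 libraries of cultured mouse bone marrow cells were used. The authors deposited raw counts of reads per gene, without normalization. Per the submitters' processing notes, the aligner was STAR 2.0.4b and the build GRCm38. Exonic reads were summed per gene by featureCounts 1.4.5-p1 against Ensembl release 76 without regard to strand (setting 0), per the file headers, so reads of overlapping genes on opposite strands cannot be told apart. Groups and replicate numbers were taken from the sample titles. Symbols matched 40254 of 41388 identifiers. The other 1134 held 0.136% of the counts and were never named.

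edgeR 4.0.16 (R 4.3.3, limma 3.58.1) was run with TMM factors, its default filter on low counts and the robust quasi-likelihood F test on all 12 libraries with 4 group means. It was fitted to 13030 genes for 5 comparisons, with Benjamini-Hochberg adjustment over all tested genes and a threshold of 0.05. Dividing the size of the log2 fold change by the root of F gave its SE, which is too small where counts are few. The code was tested on simulated data. Alternatives were DESeq2 1.42.0, other scalings and filters, a replicate block and leaving out each library. Replicates differed by more than sampling noise (chi-square per degree of freedom 1.26 to 5.44). Totals were 18489873 to 21667237 per library, and intervals cover counting error only.

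The members and lists were chosen with earlier results of these data known. Named genes were the 8 receptor genes, Asxl2, the passing genes of each list that changed most (up to 4, from 1 CPM), the 3 genes most like each member (Gm and Rik gene models left out) and genes within 150 kb. Adora3, Olfml3, Sall1, Siglech, Il1b, Calcr, Oscar and Lyz2 were named after their values were seen. Exonic overlap was computed from the exon coordinates that the count files give. A few listed or neighbouring genes are not reported here.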

Additional observations from a re-analysis of the deposited data

Results flagged for a closer look

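The change with RANKL differed between KO and flox cells for the genes below (edgeR, adjusted p under 0.05 for the difference of the log2 changes, KO minus flox, n = 3 libraries in each of 4 groups). P2rx4 differed by 0.47, with a fall of 0.55 in KO against 1.02 in flox cells. For P2rx7 the difference was 0.16, and it no longer passed without flox_BMM library 2, KO_BMM library 1, KO_BMM library 3, flox_OC library 2 or KO_OC library 3. Both are members chosen with results known, so these are descriptions.

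Among the listed pathway genes the difference was -0.70 for Adora2b, 1.44 for Nt5e, 0.44 for Bst1 and 0.17 for Panx1. It was -0.66 for Gja1, -0.32 for Slc29a1 and -0.62 for Slc29a3. Of the signalling genes, Plcb4 differed by 0.45, Itpr1 by 0.44, Pik3cg by 0.42 and Arrb2 by 0.45. Of the inflammasome genes, Nlrp3 differed by 0.27, Casp1 by 0.17, Nek7 by 0.17 and Gsdmd by -0.61. Of the microglia list, Cx3cr1 differed by 1.37, Fcrls by 0.65, Mertk by 0.79 and Gas6 by 0.72. Of the genes near the receptors, Relt differed by -0.80, Fchsd2 by 0.32, Rnf34 by -0.26 and Anapc5 by -0.11. The calls of Panx1, Casp1 and Anapc5 were lost in 6, 8 and 10 of the 12 fits that left out 1 library.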

How the results depend on the processing

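None of the 8 receptor genes changed the sign of a passing change under any alternative. The number of them that passed for the difference of the RANKL effects was 2, and 1 with library size alone and with DESeq2, P2rx7 being lost. Leaving out 1 library gave 1 to 2. Ranking the 8 genes by CPM per kb in place of CPM exchanged 1 pair in KO_BMM and 1 in flox_OC. P2ry2 passed by genotype in BMM but not when only those groups were fitted, without flox_BMM library 1 or without KO_BMM library 2, and its RANKL fall in flox cells did not pass with library size alone. P2rx7 passed by genotype in BMM with library size alone, without the low-count filter, or without flox_BMM library 2, flox_BMM library 3 or KO_BMM library 1. The non-passing OC genotype value of P2ry12 ranged from -0.021 to 0.23. Scaling by library size alone shifted the median of all genes by 0.165 (log2) with RANKL in flox and 0.136 in KO cells. It moved the share of higher calls from 48.3% to 59.9% by genotype in BMM.

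No pairing by replicate number was seen: correlations of deviations between same-numbered libraries were -0.034 to 0.032. These values cannot exclude pairing, since the spread between libraries may be technical. With a replicate block 5150 genes passed by genotype in BMM against 5203 without it, and the counts of receptor genes that passed were the same in all 5 comparisons. Of the 47 listed pathway genes tested, 28 passed by genotype in BMM, beside 39.9% of all tested genes. The number was 20 to 27 when 1 library was left out and 22 with DESeq2. Low reads limit Gpr34 in OC.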
